A study of Rattus norvegicus with 13 samples.

Results

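Of the 460 rat miRNAs counted in the kidneys of 13 rats, 6 were taken here by name, each usually described in nervous or endocrine tissue: rno-miR-9a-5p, rno-miR-9a-3p, rno-miR-9b-3p, rno-miR-128-3p, rno-miR-7a-5p and rno-miR-375-3p (the species prefix is left out below). They were chosen by name and not by level, but with earlier results of these data known. All 6 passed the low-count filter, as did 419 of the 460. The animals were female Wistar rats of the inbred WAG/RijCmcr strain, 11 to 12 weeks old when the study began. Control rats (n = 4) received 0 Gy and no drug. Irradiated rats (n = 4) received 13 Gy of X-rays to the body with a hind limb shielded (leg-out PBI). A further group (n = 5) received the same 13 Gy and, from day 7, lisinopril in the drinking water at about 24 mg per square metre per day; lisinopril blocks the enzyme that makes angiotensin II. All kidneys were taken on day 35. Saline (40 ml per kg per day, days 3 to 7) and enrofloxacin (10 mg per kg per day, up to day 14) were supportive care, timed from irradiation. The labels do not say whether control rats had them too, so each comparison with control may also differ in this care. The comparisons ask which miRNAs differ after irradiation and which differ when the drug is added. RNA came from whole kidneys, so a level per cell and a number of cells cannot be told apart.

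miRNAs are short RNAs that guide Argonaute proteins to partly complementary messages, mainly through the seed, bases 2 to 8 of the mature strand. Each hairpin precursor can give a mature strand from either arm, 5p or 3p. miR-9 acts in neural progenitors and neuronal differentiation, and both of its arms are used in brain; in myeloid cells miR-9 is induced by NF-kB signalling. miR-128 is enriched in neurons. miR-7 is abundant in pituitary, islet and other neuroendocrine cells, where the circular RNA Cdr1as binds it. miR-375 is best known from pancreatic islets, where it limits insulin secretion, and is also found in other secretory epithelia.

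The 6 mature sequences, from RefSeq (GRCr8), are shown because the names alone hide which entries are related. Capitals mark the seed.
miR-9a-5p: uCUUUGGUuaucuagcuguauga
miR-9a-3p: aUAAAGCUagauaaccgaaagu
miR-9b-3p: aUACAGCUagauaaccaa
miR-128-3p: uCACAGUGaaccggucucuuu
miR-7a-5p: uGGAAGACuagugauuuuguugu
miR-375-3p: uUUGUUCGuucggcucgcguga
No seed was shared among the 6. In the RefSeq table, miR-7b was the only other rat miRNA with the seed of any of them, that of miR-7a-5p, and it was not analysed here.

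The entry miR-9b-3p is the reverse complement of bases 4 to 21 of miR-9a-5p, over all 18 of its bases. The next lines show miR-9a-5p with that stretch in capitals, and the Mir9-3 hairpin with the 5p and then the 3p arm in capitals.
miR-9a-5p with the complement of miR-9b-3p: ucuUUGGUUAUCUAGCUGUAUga
Mir9-3 hairpin: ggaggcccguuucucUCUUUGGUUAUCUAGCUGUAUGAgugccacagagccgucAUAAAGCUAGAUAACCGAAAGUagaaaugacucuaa
In GRCr8, miR-9a-5p is annotated on the plus strand at 3 loci, chr1:142849415-142849437 within the span of Mir9-3hg, chr2:15933307-15933329 within Mir9-2hg and chr2:175974986-175975008 within an uncharacterized non-coding gene. miR-9b-3p is annotated on the minus strand inside the first 2 of these, at chr1:142849418-142849435 and chr2:15933310-15933327. The sources used here do not say whether the counting used strand, so miR-9b-3p and miR-9a-5p cannot be told apart as separate RNAs and the level of miR-9b-3p is uncertain. miR-128-3p comes from a pair of loci, within the protein-coding genes R3hdm1 and Arpp21, and miR-7a-5p from a pair of loci as well, with Hnrnpk spanning one of them. miR-375-3p has a single locus, chr9:83906591-83906612 on the minus strand, within the span of Cryba2. The deposited counts were made on another build (rn4), and none of these positions entered the counting.

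Library totals over rat miRNAs ran from 1194175 counts (control library 2) to 11095939. The level of 3 counts, taken as the floor for counting error alone, was 3.19 CPM (counts relative to the library size, which TMM scaled) in control library 2 and 0.289 to 0.561 CPM elsewhere. Of 6 kidney markers, miR-10a-5p ranked 1 in every library, and miR-30a-5p and miR-192-5p ranked between 2 and 5. The others ranked lower: miR-194-5p at 25 to 33, miR-196a-5p at 83 to 102 and miR-204-5p at 97 to 124. Of 5 neural markers, miR-9a-5p was the highest: miR-219a-5p lay at 2.98 to 11.7 CPM and miR-153-3p at 0 to 1.27 CPM, and miR-124-3p and miR-137-3p were not analysed here. Of 3 pancreas markers, miR-217-5p lay at 0 to 1.36 CPM beside the far higher miR-375-3p, and miR-216a-5p was not analysed here.

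The 6 miRNAs together held 0.160% to 0.307% of rat miRNA counts. miR-375-3p was the highest, at 1315 to 2193 CPM over the 13 libraries, and ranked 40 to 55 among the 460. miR-9a-5p followed at 197 to 483 CPM (rank 80 to 115), then miR-128-3p at 77.2 to 152 CPM (rank 128 to 162). miR-9b-3p lay at 35.1 to 75.0 CPM, miR-7a-5p at 4.09 to 14.7 CPM and miR-9a-3p at 0.837 to 4.04 CPM. No neighbouring pair in this order overlapped over the 13 libraries, although miR-128-3p (lowest 77.2) and miR-9b-3p (highest 75.0), and miR-7a-5p (lowest 4.09) and miR-9a-3p (highest 4.04), came close. These are levels per read and need no length correction, but capture in small RNA libraries depends on the sequence, so the order between miRNAs is that of these libraries.

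**Figure D1:**
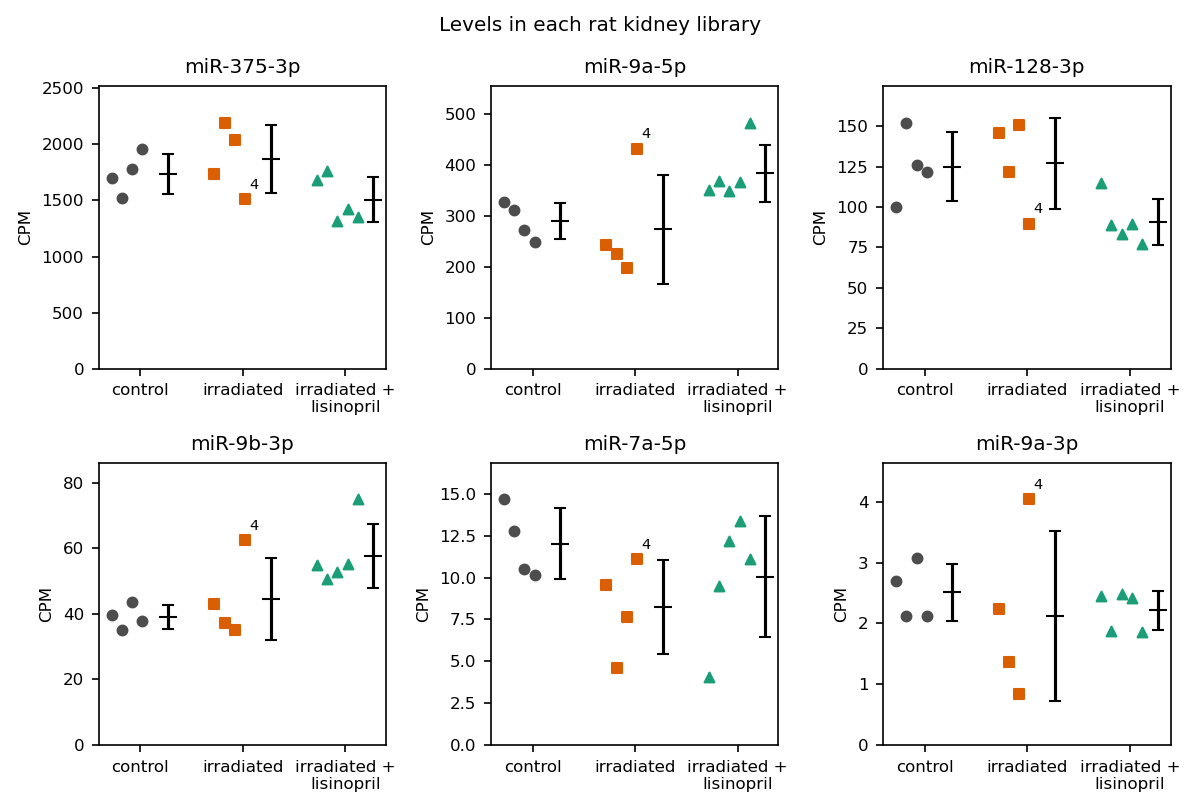
Each panel plots 1 miRNA, with its CPM on the vertical axis and a point per library; bars are the mean and SD of the 4 control, 4 irradiated and 5 lisinopril-treated kidneys. The point marked 4 is irradiated library 4, which was the highest of its group for miR-9a-5p, miR-9a-3p, miR-9b-3p and miR-7a-5p and the lowest for miR-128-3p and miR-375-3p.

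Against control kidneys, those of irradiated rats on lisinopril had 1.32 times the level of miR-9a-5p, 1.47 times that of miR-9b-3p and 0.73 times that of miR-128-3p. Against irradiated kidneys without the drug the ratios were 1.40, 1.30 and 0.714. None of these differences passed the test over all 419 miRNAs. With edgeR's quasi-likelihood test and Benjamini-Hochberg adjustment over 419 miRNAs, 0 of the 6 passed between irradiated and control kidneys, where 1.67% of all miRNAs did. Between lisinopril-treated and control kidneys 0 of the 6 passed, where 6.21% of all miRNAs did. Between irradiated kidneys with and without lisinopril 0 of the 6 passed, as for all miRNAs (0%). DESeq2 and limma-voom also called 0 of the 6 in each comparison; DESeq2 gave no adjusted p for miR-9a-3p between the irradiated groups. At an unadjusted p under 0.05 stood 0 of the 6 after irradiation (22.2% of all miRNAs), 3 between the irradiated groups (15%) and 2 between lisinopril-treated and control kidneys (22.7%). The comparisons share groups, so their values are not independent of each other.

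The guide strand miR-9a-5p was measured at 327, 312, 273 and 249 CPM in control libraries 1 to 4. Irradiated libraries 1 to 4 had 242, 224, 197 and 432 CPM. Lisinopril libraries 1 to 5 had 350, 368, 348, 367 and 483 CPM. Every lisinopril-treated kidney lay above every control kidney, while 3 of the 4 irradiated kidneys without the drug lay below every control and the remaining kidney lay above every control. Group means were 290 ± 35.7 CPM (SD, n = 4), 274 ± 107 CPM (SD, n = 4) and 383 ± 56.3 CPM (SD, n = 5), so the irradiated group was the most variable. Ranks within each library, which use no scaling factor, gave the same separation: 91 to 105 in controls and 80 to 90 under lisinopril.

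For miR-9a-5p under lisinopril against control the log2 fold change was 0.40 (SE 0.201, 95% interval -0.03 to 0.83, edgeR adjusted p = 0.255). On log2 CPM, the exact two-sided permutation p was 0.00794, the lowest possible with 4 and 5 kidneys, among 18 such tests over the 6 miRNAs and 3 comparisons, without adjustment. Groups did not overlap for 2 of the 6 miRNAs in this comparison, miR-9a-5p and miR-9b-3p, both with higher values under the drug. Among all 419, groups did not overlap for 13.4%, and for 5.97% with higher values under the drug. Between the irradiated groups 0 of the 6 did not overlap, against 4.3% of all miRNAs. Against irradiated kidneys without the drug the log2 fold change was 0.49 (SE 0.201, 95% interval 0.06 to 0.92, edgeR adjusted p = 0.261), with overlap through irradiated library 4. Without that library it was 0.77 (edgeR adjusted p = 0.0161), but the library stood out by these same values. With any other library of these groups left out it was 0.35 to 0.54 (edgeR adjusted p = 0.216 to 0.629). Irradiated against control kidneys differed by -0.08 (SE 0.211, edgeR adjusted p = 0.84). That value became -0.37 (edgeR adjusted p = 0.0991) without irradiated library 4 and changed sign, to 0.15, with library totals as the sole scaling.

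miR-9b-3p, the entry antisense to miR-9a-5p, was measured at 39.7, 35.1, 43.6 and 37.7 CPM in control libraries 1 to 4. Irradiated libraries 1 to 4 had 43.0, 37.3, 35.2 and 62.5 CPM, and lisinopril libraries 1 to 5 had 54.9, 50.8, 52.8, 55.3 and 75.0 CPM. As for miR-9a-5p, all 5 treated kidneys lay above all controls, and irradiated library 4 stood apart from the other 3 of its group. The log2 fold change of lisinopril against control was 0.56 (SE 0.181, 95% interval 0.17 to 0.94, edgeR adjusted p = 0.0806). It was 0.56 with an adjusted p of 0.0320 in an edgeR fit of these 2 groups alone. Without irradiated library 4, an omission from the third group chosen after the data were seen, it was 0.55 with an edgeR adjusted p of 0.0313. Between the irradiated groups it was 0.38 (SE 0.178, edgeR adjusted p = 0.325). Without irradiated library 4, which stood out by these same values, it was 0.56 (edgeR adjusted p = 0.0386). With any other library of these groups left out it was 0.27 to 0.43 (edgeR adjusted p = 0.268 to 0.668). Irradiated against control kidneys differed by 0.18 (SE 0.189, edgeR adjusted p = 0.574), and by -0.016 without irradiated library 4.

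The counts of miR-9b-3p stood at 11.3% to 17.9% of those of miR-9a-5p in the 13 libraries. This ratio uses no scaling factor. It was 13.6% ± 2.29 (SD, n = 4) in control, 16.7% ± 1.58 (SD, n = 4) in irradiated and 15.0% ± 0.748 (SD, n = 5) in lisinopril libraries, with overlapping ranges. Since the entries overlap, their separation of treated from control kidneys cannot be counted as 2 independent observations.

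The opposite arm, miR-9a-3p (historically miR-9*), was near the detection floor, with 2 counts in control library 2 and 6 to 32 counts in the other 12. It lay at 2.70, 2.13, 3.09 and 2.12 CPM in control libraries 1 to 4, of which library 2 was under its own floor. Irradiated libraries 1 to 4 had 2.24, 1.36, 0.837 and 4.04 CPM, and lisinopril libraries 1 to 5 had 2.45, 1.88, 2.48, 2.43 and 1.85 CPM. Unlike the 5p arm, it was not higher in the treated group: the log2 fold change against control was -0.23 (SE 0.336, 95% interval -0.95 to 0.48, edgeR adjusted p = 0.794), an interval that also includes the 0.40 of miR-9a-5p. Irradiated against control kidneys differed by -0.34 (edgeR adjusted p = 0.584), and by -0.84 (edgeR adjusted p = 0.0827) without irradiated library 4. Between the irradiated groups the value was 0.10 (edgeR adjusted p = 0.919), 0.60 (edgeR adjusted p = 0.194) without irradiated library 4, and -0.071 with library totals as the sole scaling. The 3p arm made up 0.383% to 1.12% of the counts of both arms. Its share was 0.866% ± 0.184 (SD, n = 4) in control, 0.719% ± 0.247 (SD, n = 4) in irradiated and 0.590% ± 0.140 (SD, n = 5) in lisinopril libraries, with overlapping ranges.

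**Figure D2:**
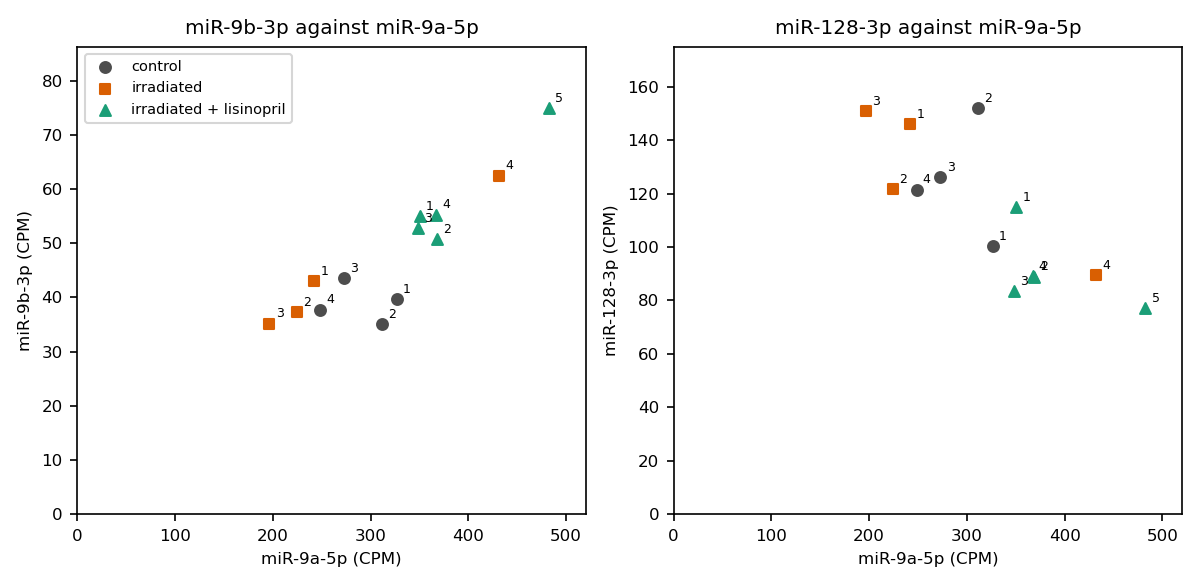
Left, CPM of miR-9b-3p against miR-9a-5p, and right, CPM of miR-128-3p against miR-9a-5p, with 1 point per library, labelled by its number within the group. Irradiated library 4 (432 CPM of miR-9a-5p and 89.6 CPM of miR-128-3p) lies among the lisinopril libraries and away from the other 3 irradiated libraries.

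miR-128-3p, a neuron-enriched miRNA, had differences of the opposite sign. Control libraries 1 to 4 had 100, 152, 126 and 121 CPM, irradiated libraries 1 to 4 had 146, 122, 151 and 89.6 CPM, and lisinopril libraries 1 to 5 had 115, 88.9, 83.5, 89.3 and 77.2 CPM. The groups overlapped through 1 control and 1 treated kidney, control library 1 lying below lisinopril library 1, and the other 4 treated kidneys lay below every control. The same 4 lay below every irradiated kidney without the drug, although irradiated library 4, at 89.6 CPM, was close to the highest of them, at 89.3 CPM. Means were 125 ± 21.3 CPM (SD, n = 4), 127 ± 28.0 CPM (SD, n = 4) and 90.8 ± 14.4 CPM (SD, n = 5).

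For miR-128-3p the log2 fold change between the irradiated groups was -0.49 (SE 0.173, 95% interval -0.85 to -0.12, edgeR adjusted p = 0.232). Without irradiated library 4, which stood out by these same values, it was -0.64 (edgeR adjusted p = 0.0346). With any other library of these groups left out it was -0.58 to -0.40 (edgeR adjusted p = 0.0946 to 0.499). Against control, lisinopril-treated kidneys differed by -0.45 (SE 0.174, 95% interval -0.83 to -0.08, edgeR adjusted p = 0.127). Two-sided exact permutation tests gave p = 0.0476 and p = 0.0238 for these comparisons, without adjustment. Irradiated and control kidneys differed by 0.03 (SE 0.184, 95% interval -0.36 to 0.42, edgeR adjusted p = 0.948). The ratio of miR-9a-5p to miR-128-3p counts within a library, chosen after the values were seen and given without a test, was 2.05 to 3.26 in controls, 1.30 to 4.82 in irradiated and 3.05 to 6.25 in lisinopril libraries. The value of 4.82 belonged to irradiated library 4.

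miR-375-3p, the islet miRNA, was measured at 1698, 1523, 1777 and 1958 CPM in control libraries 1 to 4. Irradiated libraries 1 to 4 had 1739, 2193, 2040 and 1511 CPM, and lisinopril libraries 1 to 5 had 1684, 1761, 1315, 1422 and 1356 CPM. Treated kidneys 3, 4 and 5 were below every kidney of the other groups, and treated kidneys 1 and 2 were not. It varied least of the 6, with a biological coefficient of variation of 16.1% against a median of 21.0% over all 419 miRNAs. The log2 fold change between the irradiated groups was -0.31 (SE 0.132, 95% interval -0.59 to -0.03, edgeR adjusted p = 0.274), and -0.43 (edgeR adjusted p = 0.0537) without irradiated library 4. It was -0.21 (SE 0.133, edgeR adjusted p = 0.407) for lisinopril against control and 0.10 (SE 0.140, 95% interval -0.19 to 0.40, edgeR adjusted p = 0.67) for irradiated against control.

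miR-7a-5p, the neuroendocrine miRNA, varied most of the 6, with a biological coefficient of variation of 31.5%. Control libraries 1 to 4 had 14.7, 12.8, 10.5 and 10.1 CPM, irradiated libraries 1 to 4 had 9.53, 4.59, 7.67 and 11.1 CPM, and lisinopril libraries 1 to 5 had 4.09, 9.51, 12.2, 13.4 and 11.1 CPM. Irradiated kidneys 1, 2 and 3 lay below every control, and irradiated kidney 4 lay inside the control range. The treated kidneys ran from below the lowest irradiated kidney to above the highest, and overlapped the controls, of which library 1 lay above all of them. Irradiated against control kidneys differed by -0.54 (SE 0.327, 95% interval -1.24 to 0.15, edgeR adjusted p = 0.331), and by -0.72 (edgeR adjusted p = 0.159) without irradiated library 4. The log2 fold change was 0.31 (edgeR adjusted p = 0.619) between the irradiated groups and -0.23 (edgeR adjusted p = 0.772) for lisinopril against control.

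The opposite arm of a miR-7a hairpin, miR-7a-1-3p, was measured with less spread. Control libraries 1 to 4 together spanned 11.3 to 12.8 CPM, irradiated libraries 7.32 to 10.1 CPM and lisinopril libraries 9.98 to 12.9 CPM, so irradiated and control kidneys did not overlap. This held for 0 of the 6 miRNAs above and for 7.16% of all miRNAs. Irradiated against control kidneys differed by -0.47 (SE 0.159, edgeR adjusted p = 0.0949) and lisinopril-treated against irradiated kidneys by 0.38 (SE 0.147, edgeR adjusted p = 0.248), and neither passed. Counts of miR-7a-5p stood at 0.410 to 1.29 times those of miR-7a-1-3p. The arm miR-128-1-5p lay at 2.58 to 8.51 CPM, and miR-128-3p had 14.8 to 39.6 times its counts. Of 7 partner arms and paralogs these 2 were tested, and 0 passed in any comparison by edgeR, DESeq2 or limma-voom, and at an unadjusted p under 0.05 stood 1 after irradiation (22.2% of all miRNAs), 1 between the irradiated groups (15%) and 0 for lisinopril against control (22.7%).

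**Figure D3:**
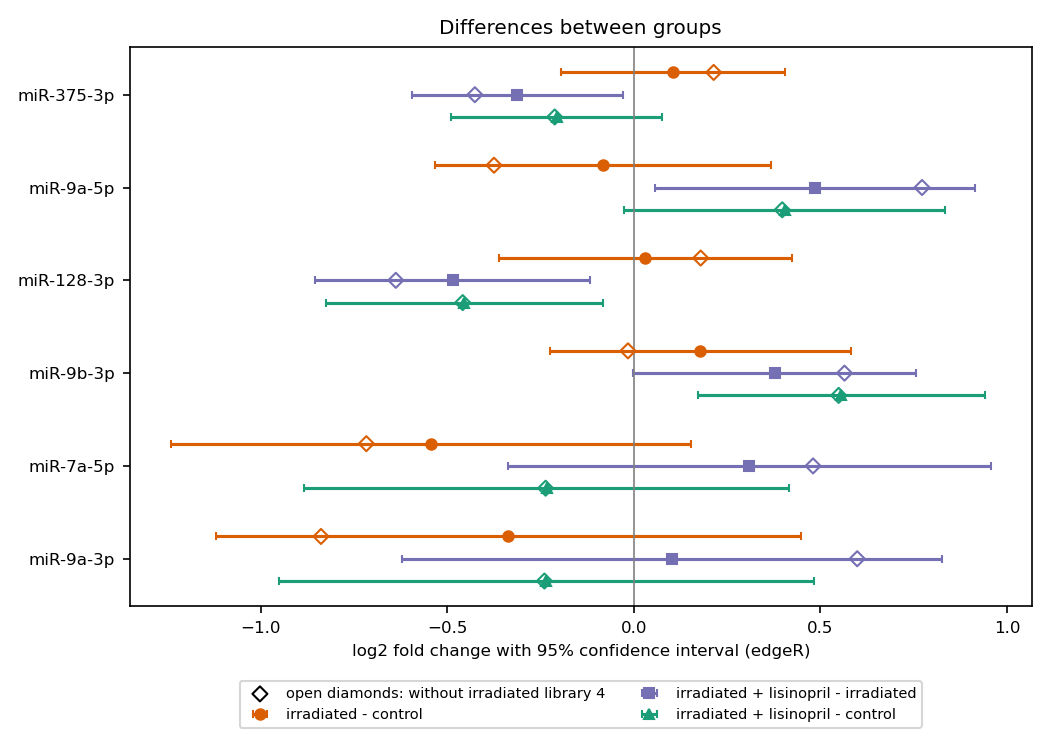
log2 fold change of each of the 6 miRNAs in the 3 comparisons (filled symbols) with its 95% confidence interval from edgeR's fit, and the same value without irradiated library 4 (open diamonds). Leaving that library out moved miR-9a-5p between the irradiated groups from 0.49 to 0.77 and miR-128-3p from -0.49 to -0.64.

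As a group the 6 had no common direction. After irradiation 3 had a positive log2 fold change, against 51.8% of all 419 miRNAs (median -0.03, against 0.02). With lisinopril against irradiation alone 4 were positive, against 46.5% of all (median 0.21, against -0.02). For lisinopril against control 2 were positive, both of them miR-9 entries, against 57% of all (median -0.22, against 0.05).

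Of 12 other miRNAs described in nervous tissue, 8 were tested. After irradiation 0 of the 8 passed by edgeR, DESeq2 or limma-voom, and 1 stood at an unadjusted p under 0.05 (22.2% of all miRNAs). Between the irradiated groups 0 passed by these tools, with 1 at an unadjusted p under 0.05 (15% of all). For lisinopril against control 4 of the 8 stood at an unadjusted p under 0.05 (22.7% of all), and groups did not overlap for 2 (13.4% of all). In that comparison 1 of the 8 passed and fell, as did 5.49% of all miRNAs: miR-219a-2-3p, the 3p arm of an oligodendrocyte miRNA, from 8.53 ± 0.651 CPM (SD, n = 4) to 3.88 ± 1.78 CPM (SD, n = 5). Its log2 fold change was -1.16 (SE 0.299, edgeR adjusted p = 0.0308), and its adjusted p was 0.0550 to 0.0961 in 7 of 19 alternatives, namely scaling by library totals and leaving out control library 1, 3 or 4 or lisinopril library 3, 4 or 5. miR-129-5p did not overlap between these groups, with a highest control value of 7.78 CPM and a lowest treated value of 8.05 CPM, with a log2 fold change of 0.78 (edgeR adjusted p = 0.0971). Summed over the 9 of the 12 that were counted, other neural miRNAs lay at 434 to 472 CPM in controls, 314 to 507 CPM after irradiation and 438 to 530 CPM with the drug, most of it miR-218a-5p. Of 4 pancreas miRNAs miR-184 alone was tested, with a mean of 1.12 CPM in control, 2.39 CPM in irradiated and 1.13 CPM in lisinopril libraries. Its means rest on few reads, from 1 count in control library 2, under the floor of 3 counts, to 29 counts. It did not pass by edgeR in any comparison (adjusted p = 0.0822, 0.105 and 0.997).

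Irradiated library 4 stood apart from its group for several of the 6 miRNAs. In it the summed kidney markers (6 of 6 measured) stood at 478696 CPM. The other 3 irradiated libraries had 345548 to 393161 CPM, controls 425971 to 737203 CPM and lisinopril libraries 442649 to 573087 CPM. Most of the sum was miR-10a-5p (320309 CPM in irradiated library 4). This marker, miR-30a-5p, miR-192-5p and miR-196a-5p were the highest of the group in that library. In contrast, miR-194-5p lay inside the range of the other 3, and miR-204-5p was the lowest, at 169 CPM against 226 to 267 CPM. The other neural miRNAs of irradiated library 4 summed to 487 CPM, inside the range of the other 3 (314 to 507 CPM). Its pancreas miRNAs summed to 2.19 CPM, also inside theirs (2.06 to 4.96 CPM). The neural list did not move together either. Irradiated library 4 was the highest of its group for miR-218a-5p, miR-219a-5p (8.25 CPM against 2.98 to 4.46 CPM), miR-338-3p and miR-153-3p. It was the lowest for miR-138-5p, miR-129-5p and miR-383-5p, and inside the range for miR-219a-2-3p and miR-132-3p. Its leukocyte markers (4 of 4 measured) summed to 827 CPM, against 799 to 1232 CPM in the other 3, but the 4 markers did not move together. For 3 of the 4 irradiated library 4 was the highest of its group, as it was for the miR-9 entries: miR-142-5p stood at 293 CPM against 82.1 to 119 CPM, miR-142-3p at 56.9 CPM against 23.6 to 48.0 CPM, and miR-223-3p at 36.7 CPM against 26.7 to 32.1 CPM. The fourth, miR-150-5p, which makes up most of the sum in the other 3, was the lowest, at 441 CPM against 630 to 1100 CPM. In controls miR-142-5p lay at 161 to 313 CPM. Group means in control, irradiated and lisinopril libraries were 226, 150 and 190 CPM for miR-142-5p and 57.3, 40.2 and 48.4 CPM for miR-142-3p. They were 47.2, 31.1 and 36.7 CPM for miR-223-3p and 478, 757 and 617 CPM for miR-150-5p, beside 290, 274 and 383 CPM for miR-9a-5p. The erythroid markers (3 of 3 measured) of irradiated library 4 summed to 1833 CPM, against 790 to 4202 CPM in the other 3 of its group. The part of these markers in the miR-9 and miR-128 values was not tested.

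Each miRNA chosen by name was compared with the 413 tested miRNAs outside that set, and members of the set were not compared with each other. The measure was the mean absolute difference in log2 CPM over the 13 libraries, each miRNA centred on its own mean. Among the 413, the nearest to miR-9a-5p were miR-199a-3p (0.16) and miR-30d-3p (0.16), against a median of 0.41. For miR-9b-3p they were miR-196a-5p (0.14) and miR-363-3p (0.16), and for miR-128-3p miR-361-3p (0.14) and miR-664-2-5p (0.18). miR-375-3p was nearest to miR-3557-5p (0.09) and miR-378a-3p (0.10), miR-7a-5p to miR-190a-3p (0.19) and miR-21-5p (0.21), and miR-9a-3p to miR-872-5p (0.26) and let-7i-5p (0.26). These distances are descriptions of the same libraries, share their depth and scaling, and carry no test. They do not say whether the overlapping entries miR-9a-5p and miR-9b-3p were nearer to each other.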

How the data were processed

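Small RNA libraries (TruSeq Small RNA kit, total RNA) were made from 13 rat kidneys, per the labels' protocols. The submitters' processing notes name Trim Galore 0.2.5, Bowtie 1.1.1 and the rn4 build. No source used here gives the rule for assigning reads to miRNAs, the strand setting or the handling of reads with several matches. The authors deposited whole-number read counts, not normalized as far as the values show, for 1121 features. The 460 rat mature miRNAs were analysed and other categories were not used here.

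Groups came from the group name in the labels, which give no batch or pairing. In R 4.3.3 with edgeR 4.0.16, filterByExpr kept 419 of 460 miRNAs. TMM factors ran from 0.787 to 1.19. A single quasi-likelihood fit, with 1 mean for each group, covered all 13 libraries. Benjamini-Hochberg adjustment ran over 419 miRNAs per comparison (threshold 0.05). log2 CPM for permutation tests used a prior count of 2. Standard errors and 95% intervals are from the edgeR fit. The procedure was tested on simulated counts, in which changed miRNAs had larger differences than any of the 6 had in the main fit. How often differences as small as theirs are found was not tested. Library totals of 1194175 to 11095939 counts set the floors; reads carry no molecular identifiers. Alternatives were RLE, library totals, other low-count filters, DESeq2 1.42.0, limma-voom (limma 3.58.1), a robust dispersion, the 2 compared groups alone, library sizes without the most abundant miRNA, miR-9b-3p left out, and each library left out in turn. A library of the third group was left out only for control library 2, between the irradiated groups, and irradiated library 4, for lisinopril against control. These omissions were chosen after the data were seen. Sequences were matched by name in RefSeq (GRCr8) for 6 of 6 miRNAs. The members, the lists and the rule for naming were chosen with earlier results of these data known. The rule named all 6 members, measured members of the lists, and the 2 miRNAs outside the members nearest to each member. Some measured members of the lists are given only in counts and sums.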

Additional observations from a re-analysis of the deposited data

Results flagged for a closer look

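In the lisinopril group 1 kidney stood far above the other 4 for both overlapping miR-9 entries: lisinopril library 5 had 483 CPM of miR-9a-5p, against 348 to 368 CPM in the rest, and its gap to the nearest was 0.853 of the group's range. The same library had 75.0 CPM of miR-9b-3p, against 50.8 to 55.3 CPM in the rest, a gap of 0.814 of the range. These were the 2 of 18 groups of values in which a sample stood so far out. For normally distributed values chance alone does this in about 5% of groups. The 2 are overlapping entries in the same library, so they cannot be counted as 2 independent observations. Lisinopril library 5 was also the highest of its group for 3 of the 4 leukocyte markers: miR-142-5p stood at 328 CPM against 114 to 189 CPM, miR-142-3p at 62.8 CPM against 39.1 to 52.7 CPM, and miR-223-3p at 41.4 CPM against 31.6 to 39.3 CPM. For the other marker, miR-150-5p, its 458 CPM lay inside the range of the rest (401 to 1202 CPM). Its summed erythroid markers were also the highest of the group (3469 CPM against 673 to 3188 CPM), most of them miR-486. Its miR-451-5p, at 142 CPM, was below the highest of the group, 161 CPM. Its summed kidney markers were slightly above the rest (573087 CPM against 442649 to 568269 CPM), but these markers did not move together. Its miR-30a-5p and miR-196a-5p were the highest of the group and its miR-204-5p the lowest. Its miR-10a-5p, miR-192-5p and miR-194-5p lay inside the range of the rest. Its other neural miRNAs summed to 487 CPM, inside the range of the rest (438 to 530 CPM). Of these, miR-219a-5p, miR-153-3p, miR-383-5p and miR-132-3p were the highest of the group and miR-219a-2-3p the lowest. The part of any of these miRNAs in the miR-9 values was not tested. Without that library the log2 fold change of lisinopril against control was 0.31 (edgeR adjusted p = 0.449) for miR-9a-5p and 0.44 (edgeR adjusted p = 0.184) for miR-9b-3p.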

How the results depend on the processing

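Over the 18 values of the 6 miRNAs, 342 alternative values were computed: 325 kept direction and side of the threshold, 5 passed the threshold and 12 changed sign, the latter all for values that did not pass. Between the irradiated groups, the log2 fold changes of miR-9a-5p, miR-9b-3p and miR-128-3p passed only without irradiated library 4, which stood out by these same values. With 1 library left out they ranged from 0.35 to 0.77, from 0.27 to 0.56 and from -0.64 to -0.40. For lisinopril against control, miR-9b-3p passed in the fit of these 2 groups (0.56) and without irradiated library 4, an omission chosen after the data were seen. With 1 library left out it ranged from 0.44 to 0.63. Signs changed for miR-9a-5p after irradiation (0.15 by library totals, -0.37 to 0.052 with a library left out), for miR-9b-3p (-0.016 to 0.28) and miR-128-3p (-0.065 to 0.18) after irradiation, and for miR-9a-3p between the irradiated groups (-0.071 by library totals, -0.18 to 0.60). Scaling by library totals moved the median of all miRNAs by 0.23 after irradiation and by -0.19 between the irradiated groups.

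Over all miRNAs, calls after irradiation numbered 7 (2 higher and 5 lower), 2 by library totals (2 higher and 0 lower), 24 by DESeq2, 1 in the fit of the 2 groups, and 1 to 60 with a library left out. Between the irradiated groups they numbered 0, 2 by RLE, by library totals, by a mean of at least 10 CPM and by limma-voom, 9 by DESeq2, and 0 to 47 with a library left out. For lisinopril against control they numbered 26, 17 with a mean of at least 10 CPM, 40 in the fit of the 2 groups, and 13 to 33 with a library left out. The highest counts with a library left out in the comparisons using irradiated kidneys came without irradiated library 4, and the cause was not tested. The mean ratio of miR-9a-5p to miR-9a-3p counts was 118 in control, 153 in irradiated and 178 in lisinopril libraries. To miR-9b-3p, which is a different entry and not the 3p arm of miR-9a, the mean ratio was 7.49, 6.03 and 6.66. The latter is therefore not another processing of the arm ratio. A mean of at least 10 CPM left miR-9a-3p untested. No paired analysis was possible because the labels give no pairing between rats. Depth limits miR-9a-3p most.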
